A study of Mus musculus with 5 samples.

Results

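The genes described here encode the proteins of the large (60S) subunit of the cytosolic ribosome, measured in invariant natural killer T (iNKT) cells sorted from mouse liver. They were chosen by name: protein-coding genes whose symbol is Rpl followed by a number, together with Rplp0, Rplp1 and Rplp2, and with no pseudogene name. This gave 52 of the 55364 gene rows in each count table, of which 46 are the standard subunit proteins and 6 are paralogs (Rpl3l, Rpl7l1, Rpl10l, Rpl22l1, Rpl36al and Rpl39l). iNKT cells are T lymphocytes that recognise lipids shown by CD1d. They were sorted as cells that bind a CD1d tetramer loaded with PBS57 and carry the T cell receptor beta chain. All mice were male wild-type C57BL/6, killed at 38 to 42 weeks. The 2 healthy libraries came from mice given PBS. The 3 HCC libraries came from mice given diethylnitrosamine (DEN, a liver carcinogen) at 25 mg/kg at 15 days of age, which developed hepatocellular carcinoma. Each library is described as from its own mouse, although the table names of HCC 2 and HCC 3 share a number.

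The large subunit holds the catalytic centre that joins amino acids, the tunnel through which the new chain leaves, and a flexible stalk that recruits the translation factors. Its proteins are made in matched amounts for each ribosome, and their messenger RNAs are among the most abundant in a lymphocyte. They begin with a run of pyrimidines at the 5′ end, through which growth signals control their translation. The mammalian genome also carries many processed pseudogenes of these genes, which are intronless copies of the messenger RNA inserted elsewhere.

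Those copies decide how a row of the count table can be read, so the 3′ coding ends of 2 members are shown beside their most abundant copies. The libraries were made from the 3′ ends of messenger RNA. Each sequence is the stretch of 60 coding bases nearest the stop codon at which all 4 copies differ from the gene at 6 bases or fewer, read 5′ to 3′ from GENCODE M21 transcripts, and capitals mark the bases that differ from the gene. Rpl26 (ENSMUSG00000060938, chr11:68901583-68906989, mm10, plus strand) is shown because its row varied most between libraries.
Rpl26: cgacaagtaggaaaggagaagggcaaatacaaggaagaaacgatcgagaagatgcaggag
Gm15772: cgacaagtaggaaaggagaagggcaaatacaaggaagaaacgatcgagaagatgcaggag
Gm13268: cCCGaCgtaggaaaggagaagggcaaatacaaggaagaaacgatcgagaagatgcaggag
Gm11826: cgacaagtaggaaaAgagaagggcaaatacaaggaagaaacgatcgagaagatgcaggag
Gm10136: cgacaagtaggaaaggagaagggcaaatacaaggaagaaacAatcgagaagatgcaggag
Rpl23a (ENSMUSG00000058546, chr11:78180932-78183584, minus strand) is shown because its copies hold most of the counts, and this stretch is identical in Rpl23a-ps3, Gm3362, Gm10335 and Gm10132.
Rpl23a: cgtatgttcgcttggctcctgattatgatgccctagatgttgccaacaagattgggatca

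The pyrimidine start is a sequence feature that the name rule did not use. RefSeq windows on GRCm38.p6, from 250 bases before to 50 bases after the start, matched 40 of the 52 members with 47 windows. The letters CTTTCC stood between 10 bases before and 15 bases after the start, on the strand of the gene, in 8 of the 40 genes (20.0%), against 1.24% of 27025 genes. The looser pattern of a C and at least 4 more pyrimidines stood in the same stretch in 24 of the 40 (60%), against 34.4% of all genes, and the annotated start itself was a C in 27.5%, against 18.9%. Anywhere in the window and on both strands, CTTTCC was found in 62.5% of the members and 29.3% of all genes. CCGGAAG, the core letters bound by ETS-family factors, was found on both strands in 37.5% and 9.93%, and TATAAA in 12.5% and 15.7%. These are matches of letters and not sites. GENCODE places the 5′ end of some genes outside the RefSeq windows printed below, such as at 68901583 for Rpl26 and 128549305 for Rpl41. Pyrimidine runs at those ends were not searched for. Below, the 30 bases around the RefSeq start are given for 4 members with the first pyrimidine run in capitals (a C and at least 4 more pyrimidines). They are also given for Rpl26 and Rpl41, which have no such run in this window.
Rplp2 at chr7:141447636-141447665, plus strand: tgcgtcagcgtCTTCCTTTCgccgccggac
Rpl38 at chr11:114668565-114668594, plus strand: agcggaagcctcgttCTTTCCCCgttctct
Rpl27a at chr7:109519180-109519209, plus strand: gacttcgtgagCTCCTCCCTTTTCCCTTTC
Rpl13a at chr7:45128731-45128760, minus strand: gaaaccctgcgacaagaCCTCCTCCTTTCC
Rpl26 at chr11:68901551-68901580, plus strand: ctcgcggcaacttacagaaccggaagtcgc
Rpl41 at chr10:128549154-128549183, minus strand: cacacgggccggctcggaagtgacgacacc

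Total counts were 1718452 to 2224356 per library, and levels are CPM, the counts scaled to each table's own total. Because these are 3′ tags, CPM was not divided by gene length. Healthy 1 stood apart, with a Pearson r of 0.769 to 0.822 with the other libraries across the log2 levels of the tested genes, where the other pairs had 0.850 to 0.905 (genes are not independent replicates). T cell markers were present in all libraries, with Cd3e at 178.1 to 283.4 CPM and Trbc2 at 1323 to 2391 CPM. Klrb1c, which encodes the surface marker NK1.1, was at 382.1 and 5.49 CPM in the healthy pair and at 464.7, 20.9 and 333.3 CPM in HCC, so healthy 2 and HCC 2 were low for it, and Cd3g was highest in healthy 1, at 305.7 CPM, and 108.1 to 216.0 CPM in the others. Zbtb16, the defining iNKT factor, was at 0 to 1.65 CPM, about the level that a count of 0 allows. Hepatocyte and erythroid markers moved with the groups, and markers of some other cells did not. All 13 hepatocyte markers had a count in at least 1 library and summed to 50.8 and 60.4 CPM in the healthy pair versus 67.5, 295.6 and 665.6 CPM in HCC. The 5 erythroid markers, mostly globins, summed to 2975 and 2787 CPM against 7390, 17083 and 15384 CPM. Of the 9 tested hepatocyte markers 3 lay wholly higher in HCC, as did all 5 erythroid markers and 12.8% of all tested genes. The 4 neutrophil markers summed to 0 and 1.10 CPM against 8.71, 12.8 and 2.12 CPM. The 4 endothelium markers summed to 0 and 0.55 CPM against 2.18, 1.75 and 2.65 CPM. The 9 macrophage markers summed to 43.2 and 8.78 CPM in the healthy pair and 11.2 to 33.8 CPM in HCC, and the 6 B cell markers to 36.0 and 123.0 CPM and to 112.1 to 174.6 CPM, so the groups overlapped. The part of these cells in the results below was not tested. In such bulk libraries a smaller share of a cell type and less RNA per cell cannot be told apart. Limits given for a count of 0 cover counting error only, since reads are not distinct molecules. Pairs and triplets of values are given below in the order healthy 1 and 2 and HCC 1, 2 and 3.

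The large-subunit genes held similar shares of the counts in healthy and HCC libraries. Their 52 rows reached totals of 72501 and 80279 CPM in healthy 1 and 2, against 74160, 73574 and 71628 CPM in HCC 1, 2 and 3, or 7.16 to 8.03% of all row counts. This is a share of rows and may differ from a share of reads, since whether a read was counted in 1 row only is not given in the sources used here. With the pseudogene copies described below, the members held 163331 to 189066 CPM. For the 52 rows without the copies, by library totals, the groups overlapped, since healthy 1 lay below HCC 1 and HCC 2. After TMM scaling, which corrects each total for the composition of the library, the same rows totalled 87403 and 77490 CPM in the healthy pair versus 71377, 65691 and 71643 CPM in HCC, and the groups no longer overlapped. The log2 ratio of the HCC mean to the healthy mean was -0.06 by library totals and -0.25 with TMM, and by library totals it was -0.14 without healthy 1 and 0.012 without healthy 2. The TMM factor of healthy 1 was 0.8295, and the others were 0.9998 to 1.12.

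**Figure D1:**
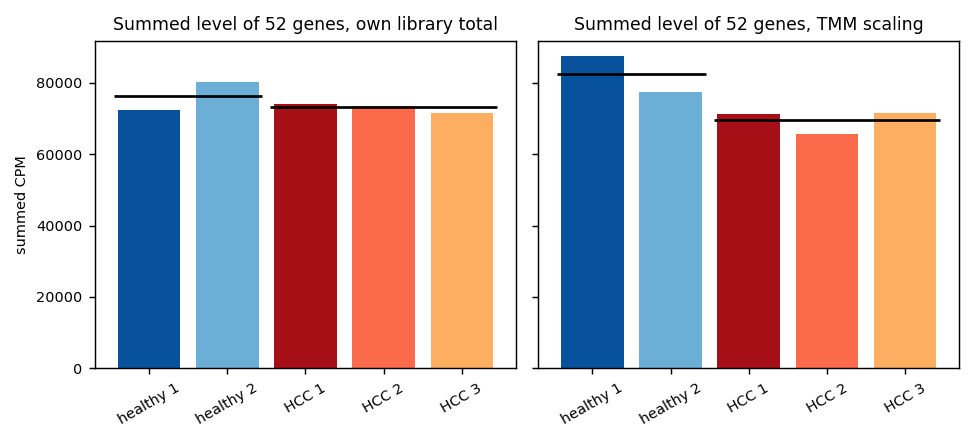
Summed CPM of the 52 large-subunit genes in each library, relative to the library's own total (left) and after TMM scaling (right); horizontal lines are group means. On the left healthy 1 (72501 CPM) lies below HCC 1 (74160 CPM), and on the right both healthy libraries lie above all 3 HCC libraries.

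No large-subunit gene passed the test of HCC against healthy. In edgeR's quasi-likelihood test, 49 members passed the filter on low counts, and 0 were called at an adjusted p under 0.05, as were 0 (0.0%) of all 8468 genes tested. At an unadjusted p under 0.05 there was 1 member, against 3.63% of all genes, and DESeq2 and limma-voom also gave 0 called members and 1 at an unadjusted p under 0.05 (2.59% and 2.46% of all genes they tested, with 9 genes called by DESeq2 and 0 by limma-voom). Without healthy 2, edgeR called 102 genes higher and 94 lower in HCC, still with 0 members, although 21 of 50 members (42.0%) then had an unadjusted p under 0.05, against 21.0% of the 9755 genes tested, and the smallest adjusted p of a member was 0.05138. Fitted fold changes were lower in HCC for 39 of the 49 members with TMM (49.7% of all genes) and for 26 with library totals (39.2%). Their median log2 fold change was -0.22 with TMM and -0.02 with library totals. The median of all genes moved likewise, from 0.0046 to 0.165, so relative to it the members stood at -0.22 and -0.19. With p values that measure only the spread between these few libraries and a common biological coefficient of variation of 53.8%, no difference in a single member passed the threshold.

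**Figure D2:**
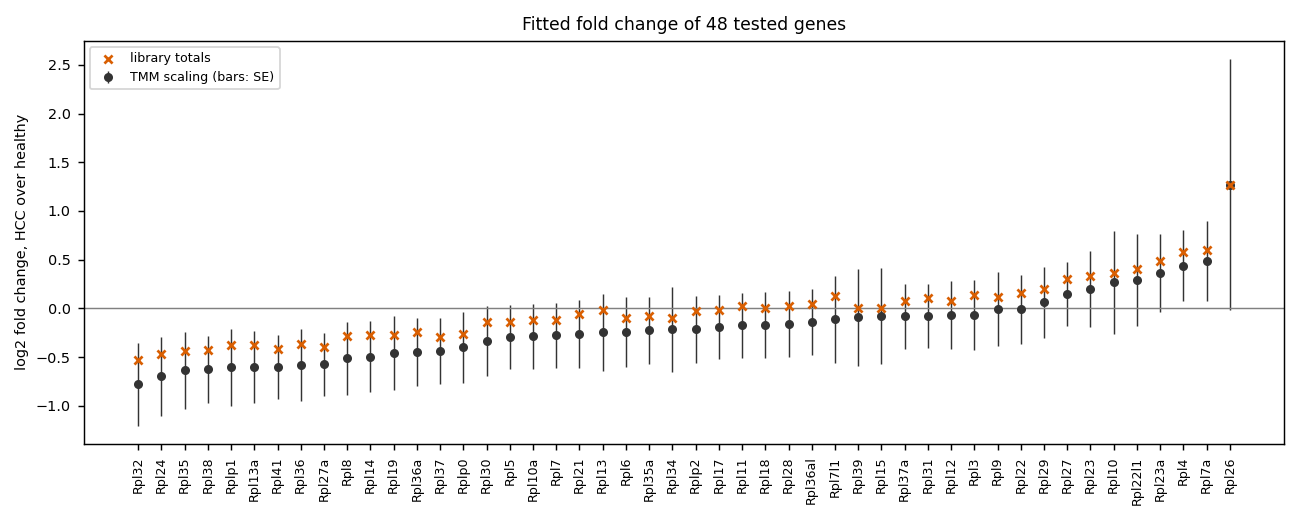
Log2 fold change of HCC over healthy for 48 of the 49 tested genes, in order of size. Dots are edgeR estimates with TMM scaling, bars are their SE, and crosses are estimates with library totals, which lie higher for nearly every gene; 39 dots lie under 0, and the crosses put 26 genes under 0.

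The 3 HCC values lay wholly to 1 side of both healthy values in few members. By own-total CPM they lay below both healthy values in 3 of the 49 tested members (5.46% of all genes tested did so) and above in 2 (12.8%). After TMM scaling the counts were 5 (8.44%) and 1 (10.6%). Both shares of members are near or under the background.

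Among the stalk proteins Rplp1, Rplp2 and Rpl12 were abundant and Rplp0 was near the middle of the members, and none separated the groups. Rplp1 and Rplp2 form the dimers that reach for the elongation factors, Rplp0 anchors them, and Rpl12 sits at the base. Rplp2 was at 7263 and 7166 CPM in the healthy pair versus 6424, 6693 and 8069 CPM in HCC, the highest mean of any member. Rplp1 was at 7743 and 4486 CPM and at 4672, 4364 and 5057 CPM. Rplp0 was at 913.1 and 1759 CPM and at 1396, 1007 and 936.8 CPM. Healthy 1 was thus the highest library for Rplp1 and the lowest for Rplp0, although both proteins belong to the same stalk. Rpl12 followed Rplp0 in this, with 2356 and 4528 CPM against 3843, 3674 and 3338 CPM. The fitted fold change was lower in HCC for all 4 with TMM, with a median of -0.31 (-0.15 with library totals). Of the 31-base words at the 3′ end of Rplp1, 79.3% also occur in other genes, and Rplp2 shares 47.3% of its words with the row of Wdr89, which held 8441 to 11335 CPM. Neither Rplp0 nor Rpl12 shares any.

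Rpl5 and Rpl11 travel with the 5S ribosomal RNA as a separate particle, which can also bind Mdm2 and so stabilise p53. Rpl11 was nearly level over the libraries, at 3127 and 2877 CPM in the healthy pair versus 2842, 3201 and 3118 CPM in HCC. Rpl5 was at 1146 and 1759 CPM in the healthy pair versus 1405, 1382 and 1177 CPM in HCC, so its HCC values lay between the 2 healthy ones by library totals. With TMM scaling Rpl5 was lower in each HCC library, by little. Of their 3′ words, 0% occur elsewhere for Rpl5 and 5.19% for Rpl11, and their summed level was 4273 and 4635 CPM against 4246, 4583 and 4295 CPM. The highest of the 5 libraries was 1.53 times the lowest for Rpl5 and 1.13 times for Rpl11, both under the members' median of 1.74.

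Among the proteins that line the tunnel or surround its exit, Rpl26 varied far more than any other member. Rpl26, which sits at the exit, was at 82.3 CPM in healthy 1, 1534 CPM in healthy 2, 3159 CPM in HCC 1, 75.1 CPM in HCC 2 and 2604 CPM in HCC 3. Its highest level was 42.1 times its lowest, and each group held 1 library near 80 CPM and others above 1500 CPM. Its copies did not follow the gene. The 12 pseudogene rows that share its 3′ words summed to 11960 and 4428 CPM in the healthy pair versus 1384, 7808 and 7786 CPM in HCC, so the gene row held 0.683%, 25.7%, 69.5%, 0.952% and 25.1% of the sum. The copies were highest in healthy 1 and lowest in HCC 1, where the gene was highest, and in HCC 3 both were high. Gm15772, the copy with the same coding end as printed above, was at 4322 and 1923 CPM and at 461.5, 3407 and 3009 CPM. Gene and copies together were at 12042 and 5963 CPM in the healthy pair versus 4543, 7883 and 10390 CPM in HCC, with a highest to lowest ratio of 2.65 in place of 42.1. The groups overlapped with and without the copies.

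The other tunnel proteins had smaller differences. Rpl39, the short protein at the tunnel's end, was at 818.7 and 3549 CPM in the healthy pair versus 2668, 2298 and 1588 CPM in HCC. Here the copies followed the gene, with 1444 and 3724 CPM and 2505, 2605 and 2085 CPM, so that healthy 1 was lowest and healthy 2 highest in both. Rpl22, an RNA-binding protein needed for alpha-beta T cell development, was at 1530 and 1702 CPM in the healthy pair versus 1598, 1574 and 2245 CPM in HCC. Rpl31 was at 458.1 and 462.7 CPM in the healthy pair versus 520.8, 488.2 and 480.9 CPM in HCC, so its HCC values lay above both healthy values, by little. Its log2 fold change was -0.08 (SE 0.33, edgeR adjusted p = 0.9999) with TMM and 0.11 with library totals, so its sign depended on the scaling. Without healthy 1 it was 0.076 with TMM. The 9 genes of this group summed to 5191 CPM in healthy 1 and 7918 to 10951 CPM in the other libraries.

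Proteins near the catalytic centre and the transfer RNAs showed no common direction. Rpl3, which has a loop that reaches towards the catalytic centre, was at 786.7 and 788.2 CPM in the healthy pair versus 680.8, 1187 and 735.1 CPM in HCC. Rpl10, one of the last proteins to join the maturing subunit, was at 240.1 and 1171 CPM in the healthy pair versus 752.6, 1216 and 755.8 CPM in HCC. For Rpl10 all of its 3′ words occur elsewhere, and its 14 copies, which include Rpl10-ps3, summed to 1352 and 3574 CPM against 2798, 3450 and 3105 CPM, again lowest in healthy 1. Rpl36a, which contacts the exit-site transfer RNA, was at 2845 and 2305 CPM and at 2089, 2087 and 2336 CPM. HCC 3 lay above healthy 2 by a small margin, so the groups overlapped. Of the 5 genes of this group 3 were fitted lower in HCC with TMM, with a median of -0.07 (0.14 with library totals).

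Rpl41, a very short and basic protein at the bridge between the subunits, was lower in each HCC library. It was at 1345 and 1519 CPM in the healthy pair versus 1191, 981.1 and 1034 CPM in HCC, with a log2 fold change of -0.60 with TMM (SE 0.33, edgeR unadjusted p = 0.0985, adjusted p = 0.9999) and -0.42 with library totals. The groups did not overlap. The row of Gm10076, a long noncoding RNA gene that shares 74.6% of the 3′ words of Rpl41, was at 1584 and 1292 CPM in the healthy pair versus 1123, 642.4 and 995.2 CPM in HCC, which was also lower in each HCC library. The rows may hold the same reads and are not separate measurements. Rpl10a forms the L1 arm and was named after its values were seen. It was at 486.9 and 753.1 CPM in the healthy pair versus 591.0, 651.7 and 466.6 CPM in HCC. With TMM scaling it was at 587.0 and 726.9 CPM against 568.8, 581.9 and 466.7 CPM. It too was then lower in each HCC library, by little.

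Rpl27a and Rpl38 were lower in each HCC library. Rpl27a was at 4123 and 4892 CPM in the healthy pair versus 3749, 3303 and 3202 CPM in HCC, with a log2 fold change of -0.58 with TMM (SE 0.32, edgeR unadjusted p = 0.106, adjusted p = 0.9999) and -0.40 with library totals. None of its 3′ words occur elsewhere, although the row of Gm24888 within the gene held 82.8% as many counts, and its fold change with TMM was -0.65 to -0.50 when any 1 library was left out. Rpl38, a small protein studied for its role in translating Hox messages, was at 944.1 and 790.9 CPM in the healthy pair versus 647.6, 613.9 and 675.7 CPM in HCC. Its log2 fold change was -0.63 with TMM (SE 0.34, edgeR adjusted p = 0.9999) and -0.43 with library totals, and it was -0.32 without healthy 1. Its 6 copies include Gm8129, at 1442 and 586.8 CPM in the healthy pair versus 936.5, 600.5 and 1088 CPM in HCC, where the groups overlapped.

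Other abundant members of the body of the subunit overlapped between the groups. Rpl13a, which is also known as a part of an interferon-induced translation silencing complex, was at 7606 and 5084 CPM in the healthy pair versus 5210, 5471 and 4016 CPM in HCC. Rpl13 was at 4152 and 2438 CPM in the healthy pair versus 3109, 2996 and 3634 CPM in HCC. For both genes healthy 1 was the highest library. Rpl7, an RNA-binding member, was at 2386 and 3701 CPM in the healthy pair versus 3163, 2934 and 2315 CPM in HCC. The 8 members with the highest means (Rplp2, Rpl13a, Rplp1, Rpl27a, Rpl12, Rpl13, Rpl11 and Rpl7) held 46.3% of the summed level.

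**Figure D3:**
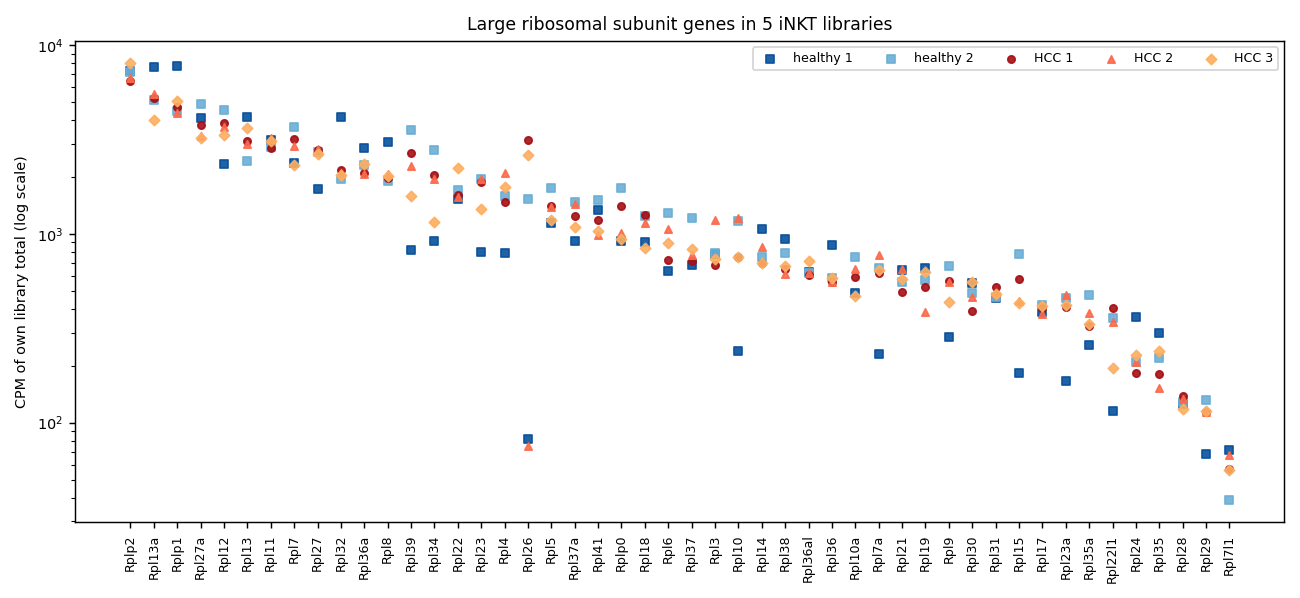
CPM of own library total (log axis) of 48 of the 49 tested large-subunit genes in each of the 5 libraries, ordered by mean level. Rpl26 is the gene whose points lie farthest apart, from 75.1 to 3159 CPM, while those of Rpl11 lie between 2842 and 3201 CPM.

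The paralogs were low or absent apart from Rpl36al and Rpl22l1. Rpl3l, known from heart and skeletal muscle, and Rpl10l, known from testis, had 0 counts in all 5 libraries, which allows up to 1.35 to 1.75 CPM, the level of 3 counts. Their partners Rpl3 and Rpl10 were present in all. Rpl39l, the testis paralog of Rpl39, had 0 and 5 counts in healthy 1 and 2 and 9, 18 and 6 in HCC 1, 2 and 3, or 0 to 10.5 CPM, and did not pass the filter. Rpl7l1 was at 71.5 and 39.0 CPM in the healthy pair versus 57.1, 67.5 and 56.3 CPM in HCC, far below Rpl7. Rpl22l1, which can take the place of Rpl22 in the ribosome, was at 116.0 and 357.3 CPM in the healthy pair versus 403.2, 343.3 and 193.7 CPM in HCC. Rpl36al was level, at 631.2 and 621.9 CPM in the healthy pair versus 604.6, 623.8 and 716.6 CPM in HCC. Among its 3′ words, 63.2% are shared with the overlapping row of Gm49383, at 650.8 to 756.4 CPM.

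The 2 healthy libraries differed from each other in many members, in both directions, and this was not particular to the members. The median size of the log2 ratio of healthy 1 to healthy 2 was 0.651 for the members. It was 0.740 for the 1723 tested genes of at least the same lowest mean. Healthy 1 was the lowest of the 5 libraries for 22 of the 49 tested members and the highest for 13, where the shares over all tested genes were 43.1% and 18.8%. Healthy 2 was the highest for 18 and the lowest for 4, for which no share over all genes was taken. The log2 ratio of healthy 1 to healthy 2 was -4.22 for Rpl26, -2.29 for Rpl10, -2.12 for Rpl39, -2.09 for Rpl15 and -1.62 for Rpl22l1. Rpl15, which reaches into the RNA of the subunit, was at 182.5 and 778.9 CPM in the healthy pair versus 576.8, 439.3 and 428.9 CPM in HCC. In the other direction, Rpl32 (named after its values were seen) was at 4138 CPM in healthy 1 and 1951 to 2169 CPM in the other libraries. The subunit's genes thus differed from each other in direction within this pair of libraries, while their sum differed by less (72501 and 80279 CPM).

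**Figure D4:**
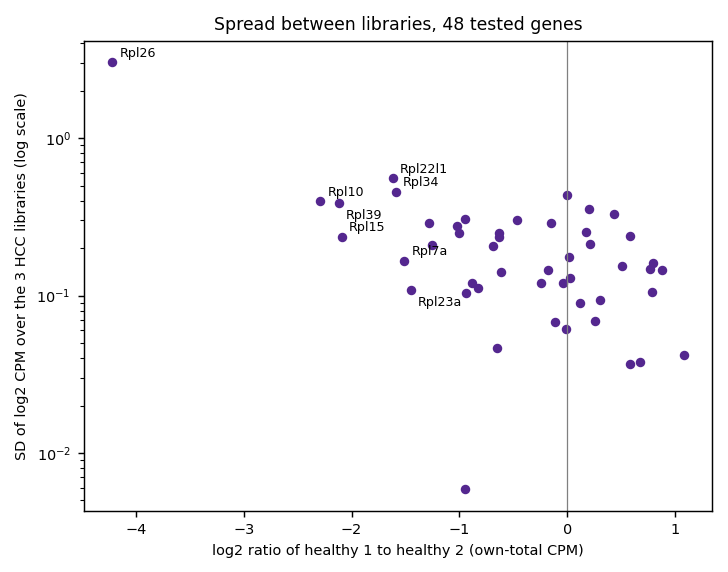
Each point is 1 of 48 tested genes, with the log2 ratio of healthy 1 to healthy 2 on the horizontal axis and the SD of log2 CPM over the 3 HCC libraries on the vertical log axis. Rpl26 lies alone, at -4.22 and an SD of 3.04, and the other points shown have an SD of at most 0.556 (Rpl22l1).

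The spread between libraries was set beside that of all tested genes at or above the lowest mean of the members, a set that holds the members and also genes of higher level. The median ratio of the highest to the lowest of the 5 libraries was 1.74 for the 49 members and 2.101 for the 1723 tested genes whose mean reached 58.3 CPM, the lowest of the members. Among the 3 HCC libraries the median SD of log2 CPM was 0.166 for the members and 0.266 for those genes. The 2 sets were not matched on level, and the difference was not tested. The ratio was under 1.5 in 11 members and over 2 in 14. Without healthy 1 the members' median ratio was 1.43. Across the 49 members, the log2 ratio of healthy 1 to healthy 2 had a Pearson r of 0.29 (Spearman 0.37) with the GC content of the last 300 bases and of 0.03 with the share of 3′ words found elsewhere. All points share the same 2 libraries. Over 6444 protein-coding genes the r with GC content was 0.17.

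Counts in pseudogene rows were larger than in the genes themselves. A row annotated as a pseudogene, or named -ps, was taken as a copy when it shared at least 20 words of 31 bases with the last 300 bases of a member's transcripts. In all, 548 such rows belonged to 38 members. This rule was set after the data had been seen. It leaves out rows annotated as protein-coding, such as Gm10073, with 76.3% of the words of Rplp1 and 6422 to 14104 CPM. Gm2000, with 96.3% of the words of Rpl35, is left out too. The 548 copies summed to 116565 and 94941 CPM in the healthy pair versus 93006, 89756 and 113109 CPM in HCC, which is more than the members' own sums in every library. Of the 32 tested members whose copies averaged at least 100 CPM, 23 had fewer counts in the gene row than in the copies, and 25 had gene and copies on the same side in healthy 1 against healthy 2. Rpl26 was among the others. For Rpl23a, a protein at the tunnel exit where the signal recognition particle docks (also named after its values were seen), the gene row was at 167.2 and 455.6 CPM in the healthy pair versus 411.9, 473.1 and 418.8 CPM in HCC, only 2.44% of the sum with its 28 copies. The copies summed to 5754 and 16466 CPM in the healthy pair versus 15677, 16291 and 22887 CPM in HCC. Gm10132 and Gm10335, on chromosomes 14 and 10, had nearly the same values in each library, from 1052 and 1092 CPM in healthy 1 to 4415 and 4464 CPM in HCC 3. These 2 rows thus followed each other over the libraries and may hold the same reads.

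**Figure D5:**
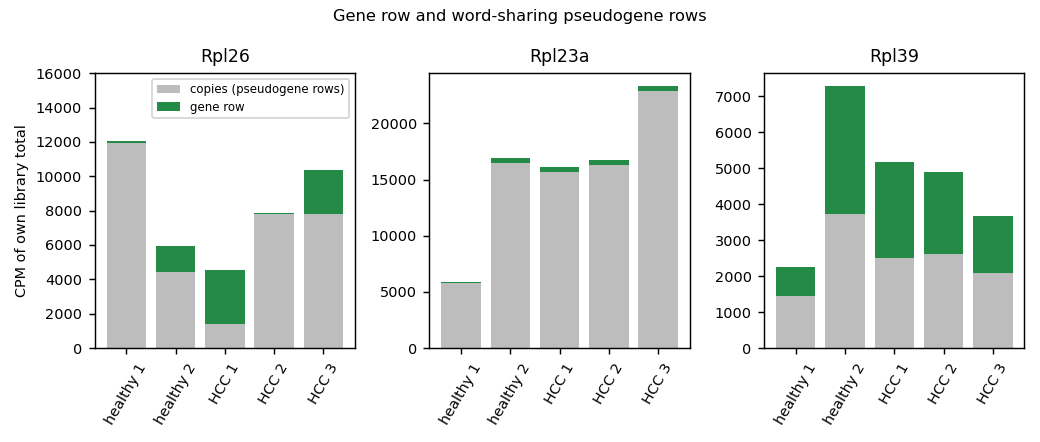
CPM of own library total in the gene row (green) and in its word-sharing pseudogene rows (grey, stacked) for 3 members in each library; each panel has its own vertical scale. For Rpl26 the green part is only 82.3 and 75.1 CPM in healthy 1 and HCC 2, where the grey part is 11960 and 7808 CPM; for Rpl39 both parts are lowest in healthy 1.

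Some small RNA rows inside the genes had counts close to those of the host. Introns of ribosomal protein genes host many small nucleolar RNAs, and 39 such rows lay within 20 members, of which 24 rows had a mean of at least 10 CPM. The row of Snora69 within Rpl39 was at 725.6 and 3360 CPM in the healthy pair versus 2556, 2193 and 1489 CPM in HCC, close to the host's 818.7 to 3549 CPM in each library. Another row held at least 10% of the member's counts in 15 members. Whether these rows hold reads of the small RNAs or of the host was not tested.

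The ribosome's other parts and the factors around it were also without calls. The small-subunit list, taken by name, has 36 genes, among them Rps19bp1, which is named as a binding protein of Rps19. All 36 were tested, 0 were called, and 26 were fitted lower in HCC with TMM. The median of their log2 fold changes was -0.33 (-0.14 with library totals). They summed to 104960 and 110901 CPM in the healthy pair versus 105955, 101057 and 94722 CPM in HCC. The mitochondrial large subunit, made of different proteins, had 0 of 49 called, 32 fitted lower and a median of -0.22 (-0.04). For 34 tested assembly factors of the large subunit, such as Eif6, Nmd3 and Npm1, 0 were called, 17 were fitted lower and the median was 0.02 (0.16). For 19 translation factors, 0 were called, 12 were fitted lower and the median was -0.23 (-0.02), and their sum was 31206 CPM in healthy 1 against 19151 to 24015 CPM in the other 4 libraries. The difference between these lists was not tested.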

How the data were processed

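RNA of sorted liver iNKT cells was made into 3′ libraries with a QuantSeq kit for Ion Torrent, per the labels' protocols. The authors deposited unnormalized counts for each Ensembl gene ID, in 1 table per library. The submitters' processing notes name HISAT2, Bowtie2 and mm10 among others, without roles or versions. The counting program, its strand setting and its treatment of reads with several matches are not given in the sources used here. Symbols, positions and transcripts came from GENCODE M21 by gene ID (55104 of 55364 matched).

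Counts were analysed with edgeR 4.0.16 in R 4.3.3 (filterByExpr by group, TMM, quasi-likelihood F test, Benjamini-Hochberg adjustment over 8468 genes, threshold 0.05). SE is the fold change divided by the root of F. DESeq2 1.42.0 and limma 3.58.1 were alternatives. The fitting steps were run on simulated data with a lower dispersion than found here and larger fold changes than those of the members. That simulation thus cannot show what size of change these libraries could detect. The sample titles do not describe replicate numbers as pairs. The correlations of deviations from the group means were -0.0024 (healthy 1 with HCC 1) and 0.12 (healthy 2 with HCC 2). With 2 healthy libraries their deviations mirror each other, so these values are not separate and cannot decide whether a batch was shared. No exact permutation of 2 against 3 can go below p = 0.2 (two-sided).

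The genes, lists and tests were chosen with earlier results of these data known. Named genes were the 8 highest, up to 6 per direction with separate groups, the 6 with the largest ratio between libraries, the stalk, the 5S pair and paralog pairs. The values of 1 tested member are not reported here, though it stays in all counts and sums.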

Additional observations from a re-analysis of the deposited data

How the results depend on the processing

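No large-subunit gene was called under the alternatives with at least 2 libraries per group. These include the fit with the replicate number as a block (0 called) and those that leave out 1 HCC library (0 to 0). Few genes of any kind were called in these fits, so 0 members is near the share over all genes. The replicate block called 3 of 8468 genes, and the fit with no filter called 29 higher and 24 lower of 16664. The members' median log2 fold change, -0.22, was -0.0216 with library totals only, -0.15 with no filter on low counts, -0.27 with protein-coding rows only and -0.31 with the word-sharing copies added (chosen after seeing the data). It was -0.21 with the replicate block, where the numbers are shared and are not described as a pairing. Leaving out 1 library gave -0.23 to -0.10.

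The log2 ratio of summed levels was -0.25 with TMM scaling and -0.14 to 0.012 with 1 library left out. Members wholly lower in HCC numbered 5 with TMM scaling and 3 to 19 with 1 library left out (19 without healthy 1, which is 38.8% against 23.3% of all tested genes, and 15 without healthy 2, 30.6% against 20.9%, and 10 without HCC 3, 20.4% against 9.83%, and 5 without HCC 2, 10.2% against 10.1%). Members wholly higher numbered 1 with TMM scaling, with the protein-coding denominator, with the rows named -ps added and with the word-sharing copies added, and 3 to 22 with 1 library left out (22 without healthy 2, 44.9% against 45.7%, and 6 without healthy 1, 12.2% against 24.2%, and 4 without HCC 3, 8.16% against 20.9%). In these counts fewer libraries have to lie apart. The median ratio of highest to lowest library was 1.89 with TMM scaling, 1.81 with the copies added and 1.43 without healthy 1. Of the 4 genes with a fold change in the text, Rpl31 reversed with library totals (0.11) and without healthy 1 (0.076), while leaving out each library in turn gave Rpl31 -0.171 to 0.076. The cause was not tested. Rpl3l, Rpl10l and Rpl39l had too few counts to be tested.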
